A study of Mus musculus with 4 samples.

Results

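A set of 10 genes linked to neuronal activity was described across the neuronal types of mouse cortex and hippocampus: 1700016P03Rik, Sik1, Trib1, Tiparp, Tnfaip6, Cbln4, Bdnf, Nptx2, Inhba and Crem, which are 10 of the 32286 features counted. They were chosen by symbol, the first 6 because they had been seen to rise in cortical neurons of these same libraries and the other 4 (Bdnf, Nptx2, Inhba and Crem) because they are known late activity genes. The mice were 5 weeks old, and nuclei of cortex together with hippocampus made 4 libraries, 1 per mouse. The 2 controls are labelled Sel1L flox/flox, with loxP sites in Sel1L (a subunit of the HRD1 complex that clears misfolded proteins from the endoplasmic reticulum), and the other 2 are labelled Sel1L Syn-Cre (here SynCre) and carry the same floxed allele with Cre driven by the Synapsin I promoter, which is active in neurons. Both labels thus share the floxed allele, nuclei were sorted by flow cytometry, and the libraries hold unique molecular identifiers (UMIs) counted at the 3′ end of each RNA. After filters, the flox/flox libraries held 11116 and 7864 nuclei with 100984599 and 68625950 UMIs, and the SynCre libraries 7538 and 6805 nuclei with 67035600 and 66167019 UMIs. Pairs of libraries shared 10 to 34 barcodes, at most 0.462% of the smaller library.

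The labels could be checked only in part. Sel1l counts, read at the 3′ end, which do not check a deleted exon, were 97.1 and 90.0 CPM (UMIs per 1000000 of a library or, below, of a library's nuclei of a type) in flox/flox replicates 1 and 2 and 155 and 128 CPM in SynCre replicates 1 and 2. The Cre feature had 409, 0, 236 and 221 UMIs in the same order, so the library labelled flox/flox replicate 1 also held Cre UMIs, and all groups are named by their labels. Derl3, a gene of the endoplasmic reticulum stress response, had 3, 2, 247 and 125 UMIs in DG, and Hspa5 had 19.2, 25.1, 265 and 144 CPM in Sst, so on these both flox/flox libraries were low. By Xist and Ddx3y, replicate 1 of each label was male and replicate 2 female. Nuclei were named after marker genes as 11 neuronal types, each "-like": 4 cortical excitatory types (L2/3 IT, L4/5 IT, L5/6 IT and L6 CT, with IT for intratelencephalic and CT for corticothalamic), 3 hippocampal types (dentate gyrus or DG, CA3 and CA1) and 4 inhibitory types (Pvalb, Sst, Vip and Lamp5). These types held 532 (Lamp5) to 2923 (L2/3 IT) nuclei.

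Calcium entry and cyclic AMP activate the transcription factor CREB, which binds the cyclic AMP response element (CRE) and turns on first a wave of immediate early transcription factors and then late genes that differ between neuronal types. Several late genes encode secreted proteins that act on synapses, and several encode brakes on CREB itself. In cortex and hippocampus such genes follow sensory input, novelty and seizures.

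Of the members, 1700016P03Rik (ENSMUSG00000085609) is a processed transcript at chr11:75172560-75177633 on the plus strand (GRCm38), and it holds the hairpins of miR-212 and miR-132, known CREB-induced microRNAs. The hairpins lay 828 and 1122 bases from its first base, both in an intron of its transcript and on its strand, while Ovca2 overlaps it on the other strand. The mature sequences are shown because the host transcript, counted below, carries them, with the seed (bases 2 to 8) in capitals, as RefSeq gives them on GRCm38:
mmu-miR-212-5p: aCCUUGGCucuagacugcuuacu
mmu-miR-212-3p: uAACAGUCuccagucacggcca
mmu-miR-132-5p: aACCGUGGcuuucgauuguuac
mmu-miR-132-3p: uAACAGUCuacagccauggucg
The 3p arms of both hairpins share the seed AACAGUC, and the 5p arms have different seeds. The host counts do not measure the mature microRNAs.

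Promoter windows of 250 bases before a RefSeq start were searched for 5 of the 10 members, with 11 windows in all. These members were Tiparp, Tnfaip6, Cbln4, Bdnf and Inhba. No window of 1700016P03Rik, Sik1, Trib1, Nptx2 or Crem was searched, so the counts below say nothing of a CRE in them. Both strands were searched for the full CRE TGACGTCA and for its 5-base core TGACG, read as CGTCA on the other strand. Each full CRE thus also holds the core. The core stood in 2 of these 11 windows and the full CRE in 0, against 17.8% and 1.55% of all 32851 windows. Among 26 other late activity and CREB target genes, 28 windows of 21 genes were searched, 15 with the core and 4 with the full CRE. The windows of Cbln4 and Bdnf are shown as those of the members with the core, and those of Pcsk1 and Scg2, late genes that rose in several types (below), as windows with the full CRE. They lie at chr2:172043467-172043716 (minus strand), chr2:109692186-109692435 (plus), chr13:75089607-75089856 (plus) and chr1:79440027-79440276 (minus) on GRCm38, and capitals mark the motif:
Cbln4: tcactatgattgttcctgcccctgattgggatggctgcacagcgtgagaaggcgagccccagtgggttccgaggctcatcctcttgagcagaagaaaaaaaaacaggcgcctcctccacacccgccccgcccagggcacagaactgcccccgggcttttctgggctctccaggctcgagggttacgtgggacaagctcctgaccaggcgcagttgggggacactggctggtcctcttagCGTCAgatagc
Bdnf: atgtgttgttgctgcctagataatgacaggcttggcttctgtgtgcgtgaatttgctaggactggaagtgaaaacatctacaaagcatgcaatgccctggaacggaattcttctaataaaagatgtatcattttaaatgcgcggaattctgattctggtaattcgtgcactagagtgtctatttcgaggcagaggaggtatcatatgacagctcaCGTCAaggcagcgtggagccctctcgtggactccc
Pcsk1: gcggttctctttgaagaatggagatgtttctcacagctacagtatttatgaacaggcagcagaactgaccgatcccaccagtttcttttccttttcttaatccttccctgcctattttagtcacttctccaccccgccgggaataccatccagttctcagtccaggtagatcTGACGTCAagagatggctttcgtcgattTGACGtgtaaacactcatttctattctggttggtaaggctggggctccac
Scg2: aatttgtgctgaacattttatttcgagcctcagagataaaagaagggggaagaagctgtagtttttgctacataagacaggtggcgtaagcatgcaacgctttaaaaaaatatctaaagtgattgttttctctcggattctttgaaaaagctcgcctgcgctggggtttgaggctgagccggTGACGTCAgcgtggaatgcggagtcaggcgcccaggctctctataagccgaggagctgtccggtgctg
The first base of the core lay 11 bases before the start in Cbln4 and 35 in Bdnf, and that of the full CRE 78 bases in Pcsk1 and 68 in Scg2. A match of letters is a description and not a binding site.

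UMIs were summed per library and type and compared with edgeR's quasi-likelihood test, adjusted by Benjamini-Hochberg over all genes tested in the type (threshold 0.05). Because the first 6 members were selected on their rise in cortex, their values in the 8 types taken as cortical are given without a test. These are the 4 cortical excitatory types and the 4 inhibitory types, whose nuclei can come from cortex or hippocampus. Tests are given for Bdnf, Nptx2, Inhba and Crem, and for the first 6 in the hippocampal types, whose nuclei come from the same mice. Filtering on low counts left 10 of 10 members in L2/3 IT and L4/5 IT, 9 in L5/6 IT, 8 in L6 CT and CA1, 6 in DG, CA3 and Sst, and 5 in Pvalb, Vip and Lamp5. Only 1700016P03Rik, Tiparp and Crem passed it in all 11 types, Tnfaip6 and Cbln4 passed in 3 each, and Trib1 in 5, Nptx2 in 6, Bdnf in 8, Sik1 and Inhba in 10. The order of the libraries is a weak guide here, since both SynCre libraries lay above both flox/flox libraries in 27% of all gene tests in the 11 types. They did so in 11 of 11 types for 1700016P03Rik, 10 for Sik1, 8 for Bdnf and Crem, 6 for Cbln4 and Nptx2, 5 for Trib1 and Tiparp, 4 for Inhba and 3 for Tnfaip6. Unlike the 27%, these counts include pairs that did not pass the filter, such as Cbln4 in Lamp5 (0, 0, 1 and 2 UMIs). For the first 6 members they also include the cortical types that chose them, so they cannot be read against the 27%.

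Bdnf, Nptx2, Inhba and Crem were fitted in 35 pairs of gene and type. These genes too were chosen with earlier results of these data known, so the counts are not independent of the data. In 6 pairs the gene rose past the threshold, in none did it fall, and 18 had an unadjusted p under 0.05. The low count filter shaped this count: 2 of the 6 (Bdnf in Sst and Inhba in Pvalb) passed it through the SynCre libraries only, with neither flox/flox library over its limit, and Nptx2 in DG, with both SynCre libraries below both flox/flox libraries, did not pass it. The other 4 calls had flox/flox libraries over the limit too. Of genes tested, 1.05% were called higher in L4/5 IT, where Bdnf and Nptx2 were called, 0.268% in L6 CT (Bdnf), 4.89% in Sst (Bdnf and Crem) and 2.22% in Pvalb (Inhba). In the other types these 4 genes gave no call, where the share of all genes called higher was 0.0782% in L2/3 IT, 0.214% in L5/6 IT, 1.88% in DG, 0.0246% in CA3, 0% in CA1, 0.00897% in Vip and 0.364% in Lamp5. The background for the 18 pairs with an unadjusted p under 0.05 ran from 733 of 11154 genes in Vip to 2586 of 11851 in Sst, in either direction. With 2 libraries per label the calls depended on each library. Leaving 1 out leaves a lone library in its label, and in such fits calls over all genes also rose in several types. A pass in such a fit is thus no sign of a firmer difference, here or below. DESeq2 called 5 over the 35 pairs and the 9 hippocampal pairs of the first 6 members. With all 4 libraries edgeR called none of those 9 (below).

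**Figure D1:**
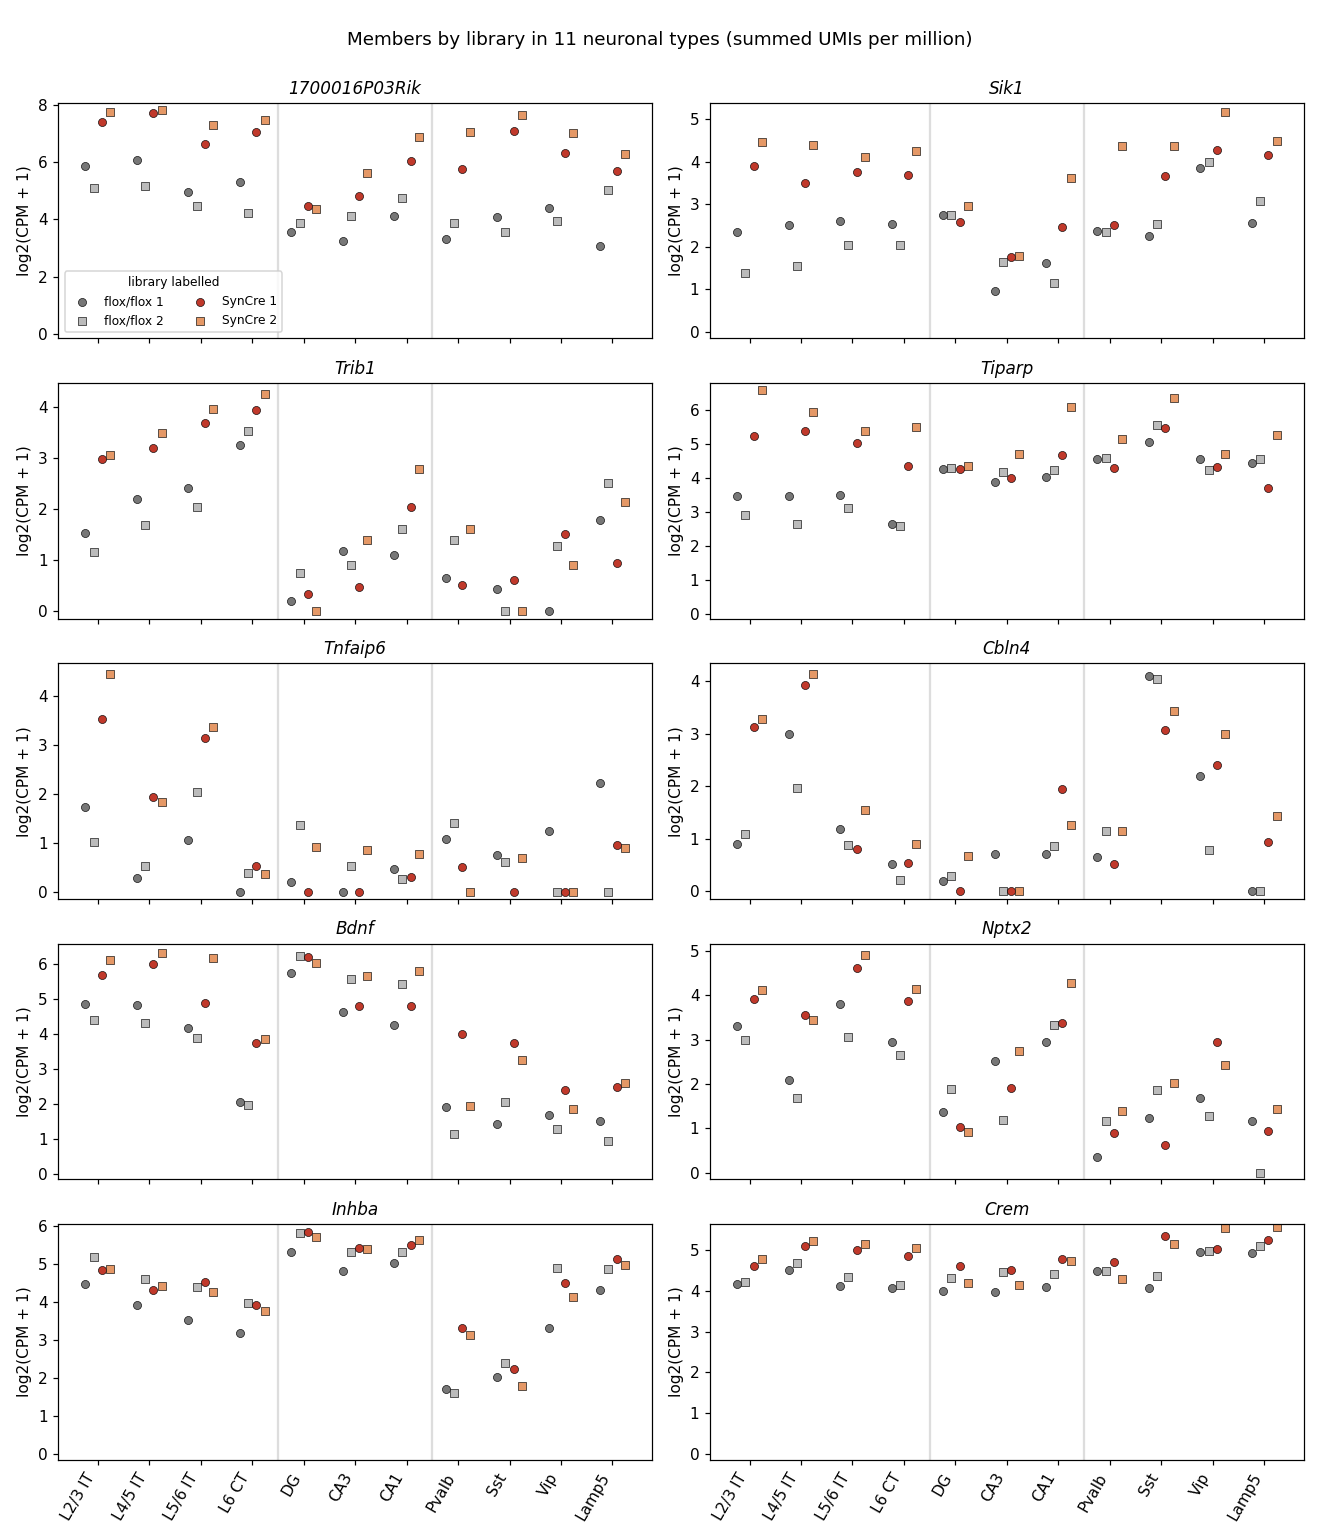
Level of each member, as log2(CPM + 1), in each of the 11 neuronal types, with 1 marker per library, grey for flox/flox and red or orange for SynCre. The SynCre markers of 1700016P03Rik stand above the flox/flox markers in 11 of 11 types, those of Inhba in 4 of 11.

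Among the regulators, 1700016P03Rik, the microRNA host, was higher in the SynCre libraries in every type. In L2/3 IT it had 663 and 328 UMIs (57.3 and 33.3 CPM) in flox/flox replicates 1 and 2 and 1427 and 2216 UMIs (166 and 212 CPM) in SynCre replicates 1 and 2. In L4/5 IT it had 66.5, 35.2, 209 and 226 CPM, its highest neuronal level, and in L6 CT 38.5, 17.5, 132 and 174 CPM, in the same order of libraries, which is kept throughout. The labels did not overlap, and the log2 fold change (SynCre over flox/flox) was 2.03 ± 0.25 (SE) in L2/3 IT, 2.03 ± 0.25 in L4/5 IT, 2.21 ± 0.23 in L5/6 IT and 2.35 ± 0.29 in L6 CT. Inhibitory neurons started lower: in Sst it had 16.1, 10.7, 135 and 198 CPM, a fold of 11.25 (log2 3.49 ± 0.22), and in Pvalb 8.99, 13.5, 53.5 and 130 CPM (log2 2.99 ± 0.37). In Vip the log2 fold change was 2.49 ± 0.26 and in Lamp5 1.75 ± 0.41, where flox/flox replicate 2 (31.8 CPM) lay well above replicate 1 (7.35 CPM).

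The difference was also seen in how many nuclei held the transcript. In L4/5 IT, 48.9% and 26.4% of flox/flox nuclei and 79.2% and 75.7% of SynCre nuclei had a 1700016P03Rik UMI, at median depths of 11930, 9246, 10291.5 and 9728 UMIs. After nuclei were thinned to 2000 UMIs, these shares were 11.4%, 8.53%, 33.5% and 34.7%. In Sst they were 15.5%, 10.5%, 52.9% and 54.4% before thinning and 2.38%, 3.31%, 21.8% and 26.3% after it. Oligodendrocyte-like nuclei, taken as the background, had shares of 2.71%, 1.53%, 6.72% and 5.48% before thinning, at median depths of 3268, 2596, 2730 and 2567 UMIs, and 1.80%, 0.67%, 5.32% and 3.78% after it. This background was also higher in the SynCre libraries, and the thinned shares in DG (2.26%, 3.05%, 3.93% and 4%) were below it in SynCre replicate 1. The part of this background in the differences was not tested.

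Sik1 (chr17:31844250-31855804, minus strand), a salt-inducible kinase that holds CREB coactivators outside the nucleus, had few UMIs, and both SynCre libraries lay above both flox/flox libraries in each type but DG. In L2/3 IT it had 47, 16, 119 and 219 UMIs, or 4.06, 1.62, 13.8 and 21 CPM (log2 2.56 ± 0.37). Its log2 fold change was 2.09 in L4/5 IT, 1.69 in L5/6 IT and 1.80 in L6 CT, and in the inhibitory types it ran from 0.84 ± 0.33 in Vip to 1.79 ± 0.40 in Sst. Pvalb rested on 1 library, with 4.21, 4.10, 4.71 and 19.5 CPM, and without SynCre replicate 2 its log2 value was 0.10. Of the 11 types, Vip neurons held its highest mean level in either label, at 13.5, 15, 18.4 and 35.0 CPM.

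Trib1 (chr15:59648350-59657099, plus strand), a pseudokinase that directs target proteins to degradation, was counted among neurons mainly in the cortical excitatory types. It had 22, 12, 59 and 77 UMIs in L2/3 IT (1.90, 1.22, 6.86 and 7.38 CPM, log2 2.15 ± 0.32). The log2 fold change was smallest in L6 CT (0.71 ± 0.20), the type of the 11 with its highest flox/flox level (8.57, 10.5, 14.3 and 18.1 CPM). In the 4 inhibitory types Trib1 had 0 to 5 UMIs per library and was not fitted.

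Tiparp (chr3:65528410-65555518, plus strand), a mono-ADP-ribosyltransferase also induced through the aryl hydrocarbon receptor, was higher in SynCre libraries in each of the 4 cortical excitatory types, while the labels overlapped in the 4 inhibitory types. In L2/3 IT it had 117, 64, 314 and 1001 UMIs, or 10.1, 6.49, 36.5 and 95.9 CPM (log2 2.96 ± 0.42), and SynCre replicate 2 stood far above replicate 1. L4/5 IT had 10.1, 5.28, 40.5 and 61.1 CPM (log2 2.63 ± 0.28) and L6 CT 5.28, 5.00, 19.4 and 44.3 CPM (log2 2.55 ± 0.34). In Pvalb it had 22.5, 23.0, 18.8 and 34.6 CPM, in Vip 22.4, 17.8, 19.1 and 25.3 CPM and in Lamp5 20.8, 22.5, 12.1 and 37.2 CPM. In all 3 of these types the labels overlapped and the log2 values, 0.07 to 0.17, were within 1 SE of 0. In flox/flox libraries the inhibitory types had the higher level, with a mean of 39.1 ± 9.60 CPM (SD, n = 2) in Sst against 8.30 ± 2.56 in L2/3 IT. The gene 4931440P22Rik overlaps Tiparp on the other strand.

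Crem, which encodes activators and the short repressor ICER of CRE-driven transcription, rose past the threshold in 1 of 11 types. In Sst it had 15.8, 19.7, 39.5 and 34.5 CPM (46, 37, 74 and 56 UMIs, log2 1.00 ± 0.23, edgeR adjusted p = 0.00671). That call was lost without flox/flox replicate 1 (adjusted p = 0.0881), without SynCre replicate 1 (0.067) and with DESeq2 (0.142). In the excitatory cortex the labels did not overlap in any of the 4 types: L6 CT had 15.9, 16.6, 28.2 and 32.1 CPM (log2 0.83, edgeR adjusted p = 0.0596) and L5/6 IT 16.3, 19.4, 31.4 and 34.5 CPM (log2 0.84, adjusted p = 0.0845). The log2 values in L2/3 IT and L4/5 IT were 0.53 and 0.55, with edgeR adjusted p of 0.17 and 0.0922. With 1 library left out, the log2 values ran from 0.49 to 0.6 in L4/5 IT, 0.77 to 0.92 in L5/6 IT and 0.77 to 0.88 in L6 CT. In Pvalb Crem had 21.4, 21.3, 25.2 and 18.7 CPM, with overlapping labels. Gm6225 overlaps Crem on the other strand.

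Among the secreted members, Bdnf gave the most calls, 3 of 8 fitted types. It encodes brain-derived neurotrophic factor, the ligand of TrkB, at chr2:109674700-109727007 on the plus strand, with Gm45346 on the other strand. In L4/5 IT it had 27.6, 18.8, 63.1 and 78.7 CPM (255, 128, 358 and 577 UMIs) and was higher by 1.54 ± 0.19 in log2 (edgeR adjusted p = 0.0119). In L6 CT its flox/flox level was far lower, 3.19 and 2.97 CPM against 12.4 and 13.6 CPM, a log2 rise of 2.00 ± 0.25 (adjusted p = 0.0158). Both calls held in 11 of 11 alternatives. The third call, in Sst, where Bdnf passed the low count filter through the SynCre libraries only, rested on 5, 6, 23 and 14 UMIs (1.72, 3.20, 12.3 and 8.62 CPM) and a log2 rise of 2.07 ± 0.49 (edgeR adjusted p = 0.00877). It was lost without flox/flox replicate 1 (0.155), without SynCre replicate 1 (0.265) and with DESeq2 (0.148).

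Bdnf in the other cortical excitatory types just missed the threshold. L2/3 IT had 27.8, 20.1, 51.0 and 68.2 CPM (log2 1.29, edgeR adjusted p = 0.0573) and L5/6 IT 17, 13.8, 28.9 and 71.5 CPM (log2 1.61, adjusted p = 0.0595). The labels did not overlap in either. With any 1 of the 4 libraries left out, the log2 value ran from 1.06 to 1.59 in L2/3 IT and from 0.88 to 2.1 in L5/6 IT. Without SynCre replicate 2, whose level was highest, the L5/6 IT log2 value was 0.88. In the hippocampus, DG had the highest flox/flox Bdnf level of the 11 types, with 53.1, 73.8, 72.5 and 64.9 CPM, with overlapping labels, and CA3 had 23.7, 46.5, 27.0 and 49.2 CPM. In Pvalb, Vip and Lamp5 it had 1 to 35 UMIs per library, higher in both SynCre libraries in CPM, and was not fitted. Pvalb rested on SynCre replicate 1, with 2.81, 1.23, 15 and 2.85 CPM. With names made without integration its labels overlapped there (2.76, 1.21, 14.8 and 2.75 CPM).

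Nptx2 (chr5:144545902-144557478, plus strand), a secreted pentraxin that gathers AMPA receptors, rose in L4/5 IT. It had 30, 15, 61 and 73 UMIs there, or 3.25, 2.2, 10.7 and 9.95 CPM (log2 1.84 ± 0.30, edgeR adjusted p = 0.0225), and the call held in 11 of 11 alternatives. The other cortical excitatory types also had both SynCre libraries above both flox/flox libraries, with log2 values of 0.92 in L2/3 IT, 1.27 in L5/6 IT and 1.25 in L6 CT and edgeR adjusted p of 0.118, 0.0755 and 0.0568. With 1 library left out, the log2 values ran from 0.73 to 1.15 in L2/3 IT, 0.93 to 1.85 in L5/6 IT and 1.07 to 1.49 in L6 CT. In DG it had 11, 12, 4 and 3 UMIs, the only one of the 11 types with both SynCre libraries below both flox/flox libraries, and was not fitted.

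Inhba (chr13:16011851-16031621, plus strand, with B230303A05Rik and Gm48444 on the other strand) encodes the activin beta A subunit, and its labels overlapped in all 4 cortical excitatory types. In L2/3 IT it had 21.1, 35.4, 28 and 28.5 CPM and in L4/5 IT 14.3, 23.2, 18.9 and 20.6 CPM, with the SynCre libraries between the flox/flox libraries in both. Flox/flox replicate 2 lay above replicate 1 in each of these 4 types. In DG it had 38.7, 55.6, 56.6 and 51.8 CPM and in CA1 31.7, 39.3, 44.8 and 48.8 CPM (edgeR adjusted p = 0.626), and in Sst, with 9, 8, 7 and 4 UMIs, it was not fitted. The 1 call was in Pvalb, where it passed the low count filter through the SynCre libraries only, on 8, 5, 21 and 19 UMIs (2.25, 2.05, 8.99 and 7.73 CPM, log2 1.85 ± 0.44, edgeR adjusted p = 0.0333). It was lost when any 1 library was left out (edgeR adjusted p 0.0646 to 0.256), with DESeq2 (0.278) and with doublets kept (log2 1.13, 0.163).

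Tnfaip6 (chr2:52038009-52056686, plus strand), a secreted hyaluronan-binding protein, was counted in neurons of upper and deep IT layers. In L2/3 IT it had 27, 10, 90 and 217 UMIs, or 2.33, 1.01, 10.5 and 20.8 CPM (log2 3.16 ± 0.43). L4/5 IT rested on 2, 3, 16 and 19 UMIs (log2 2.99 ± 0.56) and L5/6 IT on 6, 11, 31 and 34 UMIs (log2 2.08 ± 0.45). Its level in oligodendrocyte-like nuclei was much higher, 161, 229, 239 and 298 CPM (1088, 800, 265 and 307 UMIs), in 1847, 1174, 357 and 365 nuclei. The part of free oligodendrocyte RNA in the neuronal UMIs was not tested. L6 CT had 0, 2, 3 and 2 Tnfaip6 UMIs and CA1 had 3, 1, 1 and 3.

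Cbln4 (chr2:172036233-172043466, minus strand) encodes a secreted C1q-family synaptic organizer that binds neurexins, and its direction differed between types. In L2/3 IT it had 10, 11, 67 and 91 UMIs, or 0.865, 1.12, 7.79 and 8.72 CPM (log2 3.04), and in L4/5 IT 6.94, 2.93, 14.3 and 16.6 CPM (log2 1.54). In Sst, where its flox/flox level was highest, it had 47, 29, 14 and 16 UMIs, or 16.1, 15.5, 7.47 and 9.86 CPM (log2 -0.96 ± 0.33), so both SynCre libraries lay below both flox/flox libraries. The rises are among the cortical values that chose Cbln4, and the difference between these types was not tested. In L5/6 IT and L6 CT, libraries had 1 to 7 UMIs and were not fitted.

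**Figure D2:**
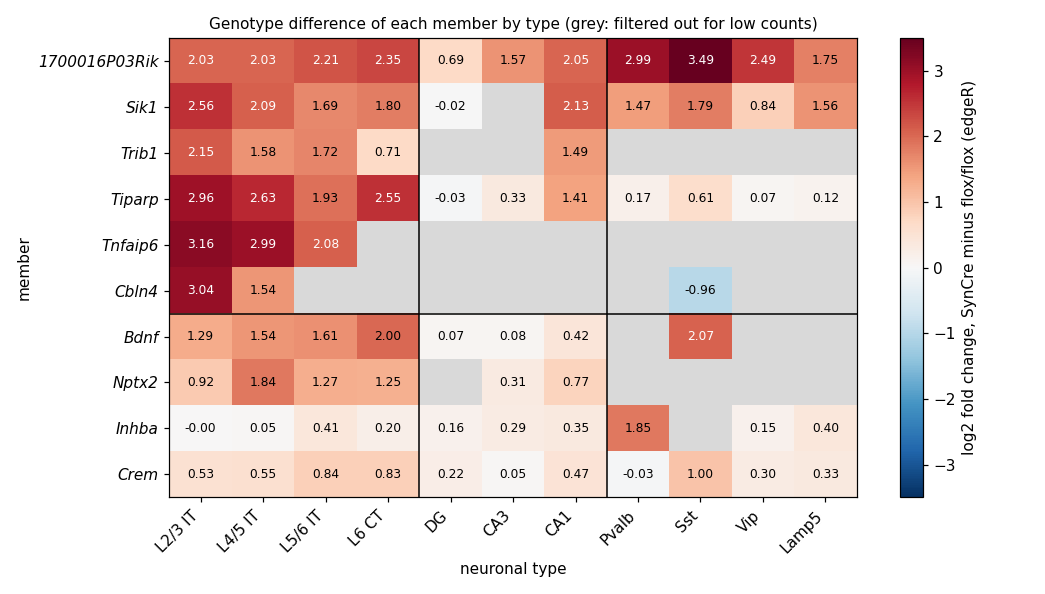
Heatmap of the log2 fold change (SynCre over flox/flox) of each member (rows) in each neuronal type (columns), grey where counts were too low to fit. Of the 34 fitted pairs of the first 6 members in the cortical types, 33 are above 0 and Cbln4 in Sst (-0.96) is below. These members were chosen for a rise in cortex in these same libraries, so the count is not a test. Tnfaip6 in Pvalb, with 4, 4, 1 and 0 UMIs, was too low to fit.

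The hippocampal types allow a test of the first 6 members outside the types that chose them. Their nuclei come from the same mice, so this test is not independent of that choice. They were fitted in 9 pairs, of which Sik1 and Trib1 in CA1 passed the low count filter through the SynCre libraries only, and edgeR called 0 of the 9 although 6 had an unadjusted p under 0.05. With the replicate number as a term, which is also a term for sex here, edgeR called 4 of them: 1700016P03Rik in DG (adjusted p = 0.0491) and CA1 (7.46e-10), and Tiparp (0.00155) and Sik1 (0.0358) in CA1. With that term edgeR called 848 of all 13093 genes in DG and 55 of 13422 in CA1, against 466 and 0 without it. The term also leaves fewer degrees of freedom to measure spread among 4 libraries. DESeq2 called 1, 1700016P03Rik in CA1 (adjusted p = 0.0456). In CA1, edgeR called 0 of all 13422 genes, 1068 had an unadjusted p under 0.05, and DESeq2 called 4. An unadjusted p under 0.05 was also found for 2157 of all 13093 genes in DG and 973 of 12198 in CA3. In CA1 1700016P03Rik had 16.2, 25.9, 64.5 and 115 CPM (127, 128, 269 and 490 UMIs, log2 2.05 ± 0.26, edgeR adjusted p = 0.141). Tiparp there had 15.3, 17.8, 24.7 and 67.5 CPM (log2 1.41 ± 0.35, adjusted p = 0.465) and Sik1 2.05, 1.22, 4.55 and 11.3 CPM (log2 2.13 ± 0.49, adjusted p = 0.441). For these 3 genes both SynCre libraries lay above both flox/flox libraries, with SynCre replicate 2 highest. With 1 library left out, the log2 value ran from 1.61 to 2.37 for 1700016P03Rik, 0.55 to 1.92 for Tiparp and 1.39 to 2.63 for Sik1. Without SynCre replicate 2 the log2 value of Tiparp was 0.55.

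In CA3 1700016P03Rik had 8.52, 16.4, 27.0 and 48.4 CPM (log2 1.57 ± 0.34, edgeR adjusted p = 0.32). Trib1 in CA1 rested on 9, 10, 13 and 25 UMIs (log2 1.49 ± 0.50, adjusted p = 0.586). Tnfaip6 and Cbln4 had at most 12 UMIs per library in any hippocampal type and were not fitted there.

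DG differed from CA1. 1700016P03Rik had 10.7, 13.6, 20.9 and 19.3 CPM in DG (log2 0.69 ± 0.21, edgeR adjusted p = 0.0958), Tiparp 18.1, 18.6, 18.3 and 19.3 CPM and Sik1 5.76, 5.67, 5.03 and 6.81 CPM. Tested in edgeR as the interaction of label and type with the library as a block, the log2 fold change was smaller in DG than in CA1 by -1.33 ± 0.27 for 1700016P03Rik (adjusted p = 0.0125), -1.35 ± 0.31 for Tiparp (0.0278) and -2.08 ± 0.50 for Sik1 (0.0388). These were 3 calls among the members, while 0.719% of all genes tested were called with a smaller change in DG. Without SynCre replicate 2 none of the 3 was called (log2 -0.87, -0.61 and -1.60, adjusted p 0.0966, 0.456 and 0.32), and Sik1 was also lost without flox/flox replicate 2 (0.0581). DESeq2 called none of the members, with unadjusted p of 0.00212, 0.0119 and 0.0259 for the same 3 genes.

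The types can be set beside genes of endoplasmic reticulum stress and of ATF4, a transcription factor of the integrated stress response. Trib3 and Ddit3 are among them, so the list does not mark misfolded protein alone. It was chosen with earlier results of these data known. Of 10 such genes, including Hspa5 (the chaperone BiP), Herpud1 and Derl3 (parts of the disposal machinery), edgeR called 8 of 9 tested higher in DG (median log2 2.68; 7 with DESeq2). It called 0 of 8 in CA1 (median 0.24), where 1 had an unadjusted p under 0.05 and DESeq2 called 0, and 0 of 9 in L2/3 IT (median 0.42), where 5 had an unadjusted p under 0.05 and DESeq2 called 1. The counts were 10 of 10 in Sst, 8 of 10 in Pvalb, 7 of 10 in L4/5 IT and Lamp5, 4 of 9 in L6 CT, 3 of 9 in L5/6 IT, 1 of 9 in CA3 and 0 of 7 in Vip (3 with an unadjusted p under 0.05, 0 with DESeq2). In CA3 the median log2 was 1.43, 8 of the 9 were higher at an unadjusted p under 0.05, and DESeq2 called 2. Of all 12198 genes tested in CA3, edgeR called 3 higher. Derl3 passed the low count filter through the SynCre libraries only in each type where it was called, such as DG (limit 2.44 CPM). So did Sdf2l1 in DG, Pvalb, Sst and Lamp5, Creb3l2 in Lamp5, Ddit3 in L5/6 IT, and Trib3 in L4/5 IT, Pvalb and Sst. The filter thus shaped these counts of stress genes. In DG, with 8 of these stress genes called, the log2 fold changes of 1700016P03Rik, Sik1, Tiparp and Bdnf were 0.69, -0.02, -0.03 and 0.07. In the same order of genes they were 2.03, 2.56, 2.96 and 1.29 in L2/3 IT, with 0 called. Sst, with 10 of 10 called, had 3.49, 1.79, 0.61 and 2.07, and L4/5 IT, with 7 of 10, had 2.03, 2.09, 2.63 and 1.54. The cortical values of Sik1, Tiparp and 1700016P03Rik are among those that chose these members. The relation between stress genes and members over types was not tested.

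Derl3 was close to absent from flox/flox nuclei, so SynCre nuclei were split by whether they had a Derl3 UMI after thinning each to 4000 UMIs. Of cortical excitatory nuclei, 54 and 45 had one and 1975 and 2282 did not in SynCre replicates 1 and 2. The 4 cortical excitatory types were pooled here, and so were the 4 inhibitory types below. Derl3 was uneven between pooled types, with 12.3 and 8.32 CPM in L4/5 IT and 5.79 and 4.11 CPM in L5/6 IT in these libraries. Nuclei with and without a Derl3 UMI can thus differ in their mix of types, and the part of this mix was not tested. 1700016P03Rik had 218 and 244 CPM in nuclei with a Derl3 UMI and 166 and 215 CPM in those without, against 55.4 and 33.9 CPM in flox/flox nuclei without one. The exact Poisson intervals, which cover counting error only, were 160 to 289 and 178 to 328 CPM with Derl3. Herpud1 had 176 and 117 CPM with a Derl3 UMI and 37.6 and 36.6 CPM without, against 15.8 and 21.5 CPM in flox/flox nuclei without one, so it too was above its flox/flox level in SynCre nuclei without a Derl3 UMI. Without a Derl3 UMI, Inhba (21.6 and 21.5 CPM in SynCre) lay between its flox/flox values (16.5 and 27.1 CPM), while Tiparp and Bdnf lay above theirs. Tiparp had 30.9 and 67.2 CPM there and 37.0 and 33.3 CPM with one, and Bdnf 38.4 and 54.8 CPM there and 60.2 and 94.4 CPM with one, against 8.77 and 6.60 CPM and 20.4 and 14.9 CPM in flox/flox nuclei without one. With a Derl3 UMI, Tiparp rested on 8 and 6 UMIs (intervals 16.0 to 73.0 and 12.2 to 72.6 CPM). Bdnf rested on 13 and 17 UMIs (32.0 to 103 and 55.0 to 151 CPM). In inhibitory nuclei 1700016P03Rik had 93.5 and 155 CPM with a Derl3 UMI (147 and 100 nuclei) and 84.1 and 152 CPM without (511 and 507 nuclei), against 14.3 and 17 CPM in flox/flox. With 2 libraries no test was made.

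**Figure D3:**
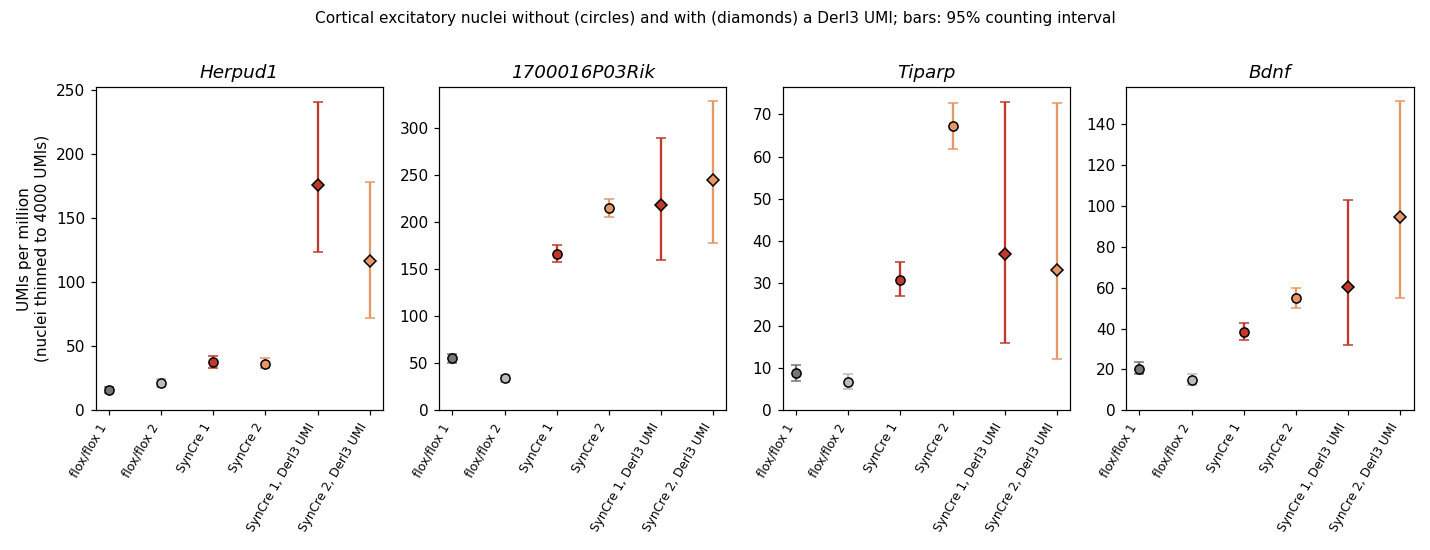
CPM of Herpud1, 1700016P03Rik, Tiparp and Bdnf in cortical excitatory nuclei (types pooled) thinned to 4000 UMIs, without (circles) and with (diamonds) a Derl3 UMI, by library, with exact Poisson 95% intervals as bars. 1700016P03Rik lies at 166 to 244 CPM in SynCre nuclei of either kind, and Herpud1 in SynCre nuclei is at 36.6 and 37.6 CPM without and at 117 and 176 CPM with a Derl3 UMI, against 15.8 and 21.5 CPM in flox/flox nuclei without one.

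Members differed in which cells held them at baseline, in the 2 flox/flox libraries. 1700016P03Rik ranged from 50.8 ± 22.1 CPM (SD, n = 2) in L4/5 IT and 45.3 ± 17 in L2/3 IT, which do not differ beyond their spread, through 28 ± 14.8 in L6 CT to 11.3 ± 3.22 in Pvalb, with DG (12.1 ± 2.09) and CA3 (12.4 ± 5.55) within the spread of Pvalb. Among the 11 types, Bdnf was highest in DG (63.5 ± 14.6 CPM), followed by CA3 (35.1 ± 16.2) and CA1 (30.2 ± 17.2), which overlapped, and lowest in Lamp5 (1.39 ± 0.638), with Vip (1.84 ± 0.577) and Pvalb (2.02 ± 1.12) within its spread. Inhba had the same leading type, DG (47.2 ± 11.9 CPM), with CA1 (35.5 ± 5.36) within its spread. Of the 11 types, Crem was highest in Lamp5 (31.5 ± 3.02 CPM) and Vip (30.4 ± 0.446), which overlapped, Nptx2 in L5/6 IT (10.1 ± 3.92), Sik1 in Vip (14.2 ± 1.08), Trib1 in L6 CT (9.52 ± 1.34) and Cbln4 in Sst (15.8 ± 0.478). Outside the 11 types, Crem had 51.8 ± 5.38 CPM in astrocyte-like nuclei and 76.6 ± 8.33 CPM in Cajal-Retzius-like nuclei (8 and 4 UMIs). In endothelial-like nuclei it had 50.7 and 172 CPM (24 and 12 UMIs). Trib1 had 16.2 ± 2.22 CPM in the cluster led by Inpp5d and Siglech, and Sik1 had 17.4 ± 2.63 CPM in L6b-like neurons. Each of these values was above that member's highest mean in the 11 types. Outside neurons, Tiparp was highest in astrocyte-like nuclei (157, 175, 146 and 165 CPM), where the labels overlapped, and Sik1 in endothelial-like nuclei (52.8, 100, 66.5 and 89.1 CPM).

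**Figure D4:**
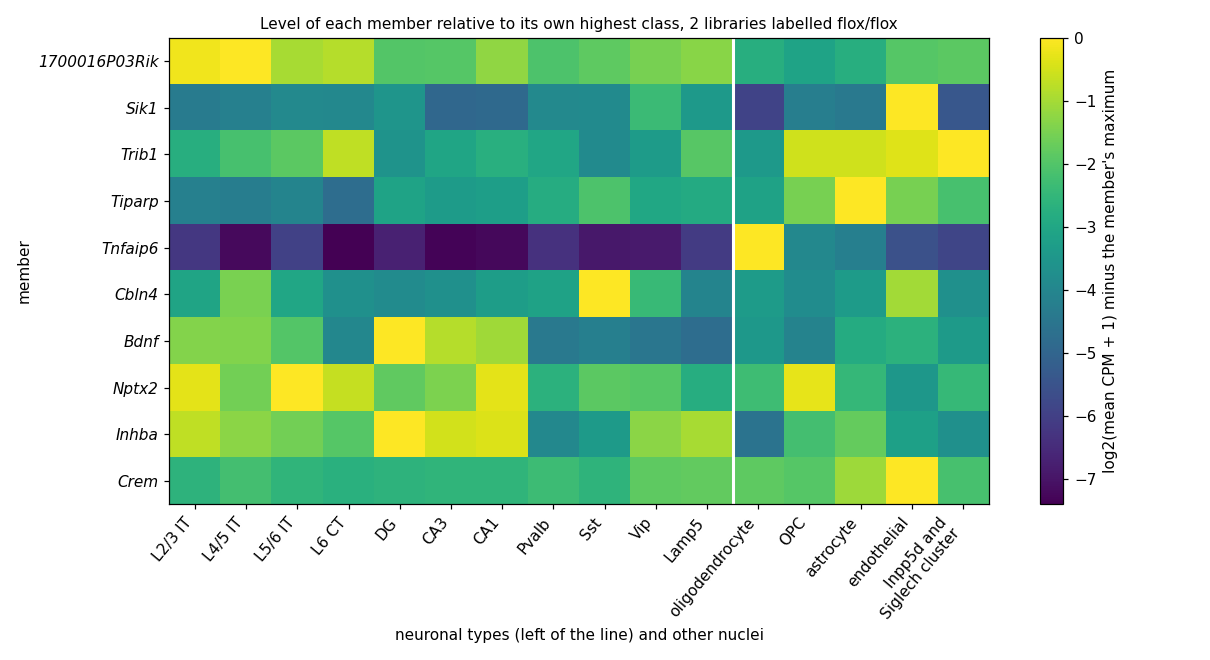
Colour map of log2(mean CPM + 1) of each member in the flox/flox libraries, minus that member's own maximum, for the 11 neuronal types (left of the line) and other nuclei. Bright cells mark where a member is highest, such as Tnfaip6 in oligodendrocyte-like and Tiparp in astrocyte-like nuclei (endothelial-like nuclei gave Cbln4 0 and 1 UMIs), and colours compare classes within a member only.

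Levels were also averaged over all 4 libraries, both labels together, so the likeness below is not one of baseline levels. For each member, the genes with the most similar mean level over the 11 types (Pearson r of log2(CPM + 1) over 11 points that share libraries and depth, as a description) were noted. They were Syt4 (r = 0.921), Fos (0.916) and Umad1 (0.915) for 1700016P03Rik, Tob1 (0.932), Lrch2 (0.924) and Lmbrd1 (0.92) for Sik1, Clstn1 (0.933), C7 (0.921) and Il17ra (0.92) for Trib1, and Fbxo16 (0.852), Prkg2 (0.825) and 1700066M21Rik (0.822) for Tiparp. Those of the secreted members were Col9a3 (0.927), Gm6260 (0.859) and Zar1l (0.839) for Tnfaip6, Lama4 (0.934), Ankfn1 (0.912) and Gbe1 (0.867) for Cbln4, Anxa11os (0.974), 1700094M23Rik (0.967) and Anxa11 (0.966) for Bdnf, Tyro3 (0.957), Wdr95 (0.953) and Mettl7a1 (0.933) for Nptx2, and A530046M15Rik (0.963), 4933412O06Rik (0.957) and Pigw (0.953) for Inhba. Those of Crem were Gatad1 (0.94), Nlgn2 (0.939) and Zkscan14 (0.923).

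Other genes of the pathway were taken as lists, here and in the next paragraph. The lists were chosen with earlier results of these data known, so their counts are a description and not an independent test. Of all genes tested, 0.517% were called lower in L4/5 IT, 1.68% in DG, 1.94% in Pvalb and 4.03% in Sst. Those with an unadjusted p under 0.05, in either direction, were 1943 of 15351 in L2/3 IT, 2161 of 14504 in L4/5 IT and 2157 of 13093 in DG. They were 973 of 12198 in CA3, 1068 of 13422 in CA1, 733 of 11154 in Vip and 1210 of 10430 in Lamp5. Of 26 late activity and CREB target genes that are not members, 7 of 21 tested were called higher and 0 lower in L4/5 IT, 8 higher and 2 lower of 15 in Sst, 4 higher of 21 in L6 CT, 3 higher and 1 lower of 15 in Pvalb, 2 higher of 19 in L5/6 IT and 1 higher of 24 in L2/3 IT. In DG 0 were higher and 1 lower of 18 (2 higher and 8 lower at an unadjusted p under 0.05, none with DESeq2), and edgeR called none in CA3, CA1, Vip or Lamp5. At an unadjusted p under 0.05, 2 were lower in CA3, 7 higher and 1 lower in CA1, 7 higher in Vip and 3 higher in Lamp5, and DESeq2 called 1 higher in CA1 and none in the others. The list's median log2 fold change was 0.88 in L2/3 IT, 0.75 in L4/5 IT, 0.46 in CA1 and -0.42 in DG, while the median over all genes tested was 0.01 or less in size in each type. Fosl2, a partner of Jun, rose in 5 types, for example in L4/5 IT from 3.14 and 3.81 CPM to 12.2 and 24.0 CPM (log2 2.35 ± 0.33, edgeR adjusted p = 0.0144). Pcsk1, a convertase that processes neuropeptides, rose in 4, among them L2/3 IT with 24.4, 18.4, 57.7 and 70.0 CPM (log2 1.56 ± 0.17, adjusted p = 0.0296). Homer1 and the clock gene Per1 also rose in 4 types each, the secretory granule protein gene Scg2 in 3, and Gpr3 in L4/5 IT (log2 2.61). Fosl2 in Pvalb and Sst and Gpr3 in L4/5 IT (0.542 and 0.293 CPM in flox/flox, limit 1.41 CPM) passed the low count filter through the SynCre libraries only. Sorcs3, a sorting receptor, fell by 1.30 on the log2 scale in DG and also fell in Pvalb and Sst.

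Immediate early genes, the first wave, were called higher for 5 and lower for 1 of 16 tested in L4/5 IT, higher for 3 of 10 in Sst, 2 of 15 in L5/6 IT, 1 of 16 in L6 CT and 1 of 10 in Pvalb, with no edgeR call in the other types. In those, 9 were higher and 1 lower at an unadjusted p under 0.05 in L2/3 IT (2 called by DESeq2), 7 higher in CA1, 2 higher and 1 lower in Vip, 1 of each in DG, 1 higher in Lamp5 and none in CA3 (0 by DESeq2). Nr4a3 rose in 4 types (log2 2.89 ± 0.39 in L4/5 IT, edgeR adjusted p = 0.0137), Egr3 in 3 (2.24 ± 0.30 in L4/5 IT, adjusted p = 0.0136) and Fos in Sst (2.64 ± 0.57, adjusted p = 0.00424). Nr4a3 in Pvalb and Sst and Fos in Sst (2.06 and 1.6 CPM in flox/flox, limit 5.33 CPM) passed the low count filter through the SynCre libraries only. Of 18 CREB activators, coactivators and kinases, edgeR called none higher in any type, with 0 also at an unadjusted p under 0.05 and 0 with DESeq2, and 1, Camk4, was lower in Sst (log2 -0.58, adjusted p = 0.049). Of the members' paralogs, 2 of 9 tested in L4/5 IT, 1 of 5 in Sst and 1 of 6 in Pvalb were called higher, with Trib3, a relative of Trib1 that is also a known ATF4 target, at log2 4.65, 4 and 3.47, and 1 was lower in Pvalb. Trib3 passed the low count filter through the SynCre libraries only in each of these 3 types. Receptors and partners of the secreted members, such as the TrkB gene Ntrk2 and the neurexins, were called higher in no type by edgeR or DESeq2 (1 at an unadjusted p under 0.05 in L4/5 IT and in DG) and lower for 4 of 16 in DG and 1 of 14 in both Pvalb and Sst, led by the activin antagonist Fst in DG (log2 -2.81 ± 0.59, adjusted p = 0.0193). Fst there had 3.46, 4.54, 0.529 and 0.592 CPM and passed the low count filter through the flox/flox libraries only (limit 2.44 CPM).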

How the data were processed

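The authors sorted nuclei, made 10x Genomics 3′ v3 libraries and ran Cell Ranger 6.1.0 against GRCm38 (submitters' processing notes), and deposited whole UMI counts per feature and nucleus, with no normalization. Whether intronic reads were counted is not given in the sources used here. Nuclei with more than 600 genes and under 5% mitochondrial UMIs were kept, and the highest Scrublet scores were removed at 0.8% per 1000 barcodes. Integration used Seurat 5.3.0 on 17 dimensions of 2000 variable features that left out the members, with resolutions of 0.2 and 0.4, and clusters were named from marker lists with at least 3 markers. When all nuclei were clustered, 1 cluster of 2249 led by Inpp5d and Siglech stayed unnamed. It met 5 of 6 markers of microglia or perivascular macrophages but was shallow, with none of these markers among its leading genes. Another cluster of 420 nuclei, with Zic1 and Zic4 among its leading genes, also stayed unnamed and was not counted with the neurons. When neurons were clustered, those clusters with under 3 markers stayed unnamed and were left out of the types, the largest with 1070 and 835 nuclei. The L5/6 IT cluster met 3 of 7 markers of that name and 3 of 7 of L4/5 IT, a name that a larger cluster had taken.

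UMIs summed per library and type were tested with edgeR 4.0.16 (TMM, filterByExpr, two-sided). An exact permutation test of 2 against 2 cannot go below 0.333, and nothing beyond 1 mouse per library separates biological from technical spread. On simulated counts with 4-fold changes the edgeR test recovered 191 of 195 changed genes in L2/3 IT (15314 genes), 188 of 194 in DG and 186 of 193 in Lamp5. False calls numbered 12, 13 and 12. The simulation gave every gene the same dispersion, unlike the data, so it does not measure how many real changes the test finds. Alternatives were RLE size factors, no low count filter, a replicate block, DESeq2 1.42.0, each library left out, doublets kept, names without integration (scanpy 1.11.5) and thinned counts. Members and gene lists were chosen with earlier results of these data known. All members were named, with the 3 most similar genes of each (members over 200 UMIs, others over 500), and of the lists any gene called in 3 or more types or with the largest called change in a type. Other tools were R 4.3.3 and Python 3.11.15. The annotation was GENCODE vM21, and sequences are from RefSeq (GRCm38.p6).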

Additional observations from a re-analysis of the deposited data

Results flagged for a closer look

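The change between labels differed between DG and CA1 for 3 members, by the edgeR test of the interaction: -1.35 on the log2 scale for Tiparp, -1.33 for 1700016P03Rik and -2.08 for Sik1, each smaller in DG. All 3 rest on SynCre replicate 2, without which they were -0.61, -0.87 and -1.60 and none was called.

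Cbln4 moved one way in L2/3 IT (3.04) and L4/5 IT (1.54) and the opposite way in Sst (-0.96), with every SynCre library on 1 side of every flox/flox library in each type. The rises are among the cortical values that chose Cbln4, and the difference between the types was not tested.

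The Cre feature, which no comparison used, had 409 UMIs in the library labelled flox/flox replicate 1 and 0 in flox/flox replicate 2.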

How the results depend on the processing

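Of single values, 542 kept their direction and side of the threshold, 55 passed it newly, 20 no longer did, 46 moved and 7 reversed. The 6 calls among all tested pairs of member and type (Bdnf, Nptx2, Inhba and Crem in any type, the first 6 members in hippocampal types) became 18 with no low count filter and 16 with the replicate block. Calls over all genes rose in most types too. In L4/5 IT they went from 227 of 14504 to 869 of 23362 with no filter and 1171 of 14504 with the block. In DG they went from 466 of 13093 to 872 of 22147 and 848 of 13093. They fell in CA3 in both settings, and in Pvalb and Sst with the block. Under the replicate block, 1700016P03Rik also passed in DG and CA1 (edgeR adjusted p = 0.0491 and 7.46e-10) and Tiparp and Sik1 in CA1 (0.00155 and 0.0358), while Inhba in Pvalb was lost (0.0537). The labels do not say that the numbers pair the mice, but replicate 1 of each label was male and replicate 2 female, so the block is also a sex block. The deviations of same-numbered libraries correlated at 0.104 to 0.228 over the 11 types, with 2 pairs. The 3 calls for DG against CA1 were 0 with DESeq2 and 0 to 4 with 1 library left out. Tiparp reversed where its values were near 0: it ran from -0.35 to 0.53 in Pvalb, -0.10 to 0.29 in Vip and -0.92 to 0.67 in Lamp5 with 1 library left out (lowest without SynCre replicate 2, and -0.08 in Vip without flox/flox replicate 2), and went to -0.18 in Vip and -0.07 in Lamp5 with thinned counts, and to -0.52 in Lamp5 with names made without integration. The causes were not tested. Of 34 fitted pairs of the first 6 members in cortical types, 33 were above 0, and 30 to 33 with 1 library left out. Since these members were chosen for a rise in cortex, neither count is a test. The leading neuronal type was kept for 9 of 10 members in flox/flox libraries alone, the exception being Tnfaip6, which led in L5/6 IT. Depth limits Trib1, Tnfaip6, Cbln4 and Nptx2 most, which had under 10 UMIs per library in many types.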

Other observations

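In neuronal types outside the 11 compared, 1700016P03Rik had 29.5, 20.8, 86.9 and 123 CPM in L5 PT-like nuclei and 19.2, 13.3, 93.0 and 131 CPM in L6b-like nuclei (flox/flox replicates 1 and 2, SynCre replicates 1 and 2). Bdnf in L6b-like nuclei had 6.41, 2.41, 27.9 and 26.9 CPM, on 7, 2, 24 and 24 UMIs.

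In oligodendrocyte precursor-like nuclei Bdnf had 5, 6, 22 and 24 UMIs (2.12, 3.45, 19.2 and 23.2 CPM) and 1700016P03Rik 10, 10, 24 and 26 UMIs (4.23, 5.76, 20.9 and 25.1 CPM), while Sik1 there had 8, 5, 1 and 0 UMIs. Trib1 in these nuclei had 7.19, 14.4, 24.4 and 25.1 CPM, with both SynCre libraries above both flox/flox libraries. The part of free RNA from neurons in these counts was not tested.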
